A study of Oryctolagus cuniculus with 6 samples.

Results

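Hyaluronan is a long, unbranched sugar polymer that fills the vitreous body and the spaces between retinal cells. It is made at the plasma membrane by the hyaluronan synthases HAS1, HAS2 and HAS3, broken down with the help of CEMIP, CEMIP2 and hyaluronidases such as HYAL1 and HYAL2, at the cell surface or in lysosomes, and bound by the surface receptor CD44, by the proteoglycan versican (gene VCAN) and by the secreted protein TNFAIP6. Long chains are associated with quiet, hydrated tissue, and short fragments with inflammation and wound repair. These 10 genes were examined in retina from rabbits, out of 28788 genes in the deposited tables. They were listed by function, but the list was chosen from a known result of the same data, namely that CEMIP was among the largest decreases in PVR. The change of CEMIP is therefore given as a description, without a test. All 10 genes were found by symbol, and 9 of them passed the filter on low counts, the exception being TNFAIP6. No annotation of the genome build of the files was used here, so no genomic positions are given.

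Retina was collected from rabbits in 2 groups of 3 samples each, normal and with proliferative vitreoretinopathy (PVR), a scarring disease in which cells form contractile membranes on the retina and in the vitreous. The animals were adult, and their strain and the time of collection are not given in the sources used here. To model the disease, the eye was punctured through the sclera, some vitreous was removed and platelet-rich plasma was injected in its place, so that the injury, the loss of vitreous, which is itself rich in hyaluronan, and the plasma cannot be told apart. How the normal eyes were handled is not given in the sources used here. The samples were retinal tissue in bulk, and a lower level in such tissue can mean fewer cells of a type or less RNA per cell, which cannot be told apart.

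The samples held between 31904593 and 43035080 counted reads. Expression is given as FPKM, the authors' read count scaled to gene length and sequencing depth, which allows levels of different genes to be compared. Changes are log2 fold changes of PVR against normal from the edgeR quasi-likelihood test, with p-values adjusted over the 18697 genes tested. The sources do not say that the samples came from separate animals, so the p-values measure the spread between these samples. The tissue label was checked against 8 matched photoreceptor markers, whose summed FPKM was between 4520 and 5314 in normal and between 4013 and 4828 in PVR samples. Normal replicate 2 stood apart by its lens genes, whose 11 matched members summed to 39540 FPKM there, to 24.1 and 27.9 FPKM in the other normal samples and to between 312 and 367 FPKM in PVR. With these genes removed before normalization, the log2 fold change was -3.03 for CEMIP and 0.41 for CD44, against -3.04 and 0.41 with them.

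CD44 was the most abundant of the 10 genes in every sample, and its lowest FPKM of 21.0 lay above the highest of any other member, 7.85 FPKM for CEMIP2. In the normal samples CEMIP2 was followed by HYAL2 and CEMIP, with mean FPKM values of 3.65 ± 0.156 (SD, n = 3) and 3.53 ± 2.54 (SD, n = 3), and these neighbours were not separated because the CEMIP samples spread across both. HYAL1, HAS3 and VCAN came next, with means of 1.08, 0.973 and 0.953 FPKM, and their ranges overlapped. HAS1 and HAS2, with means of 0.347 and 0.282 FPKM, overlapped as well, and TNFAIP6 was last with 0.0477 FPKM. In the PVR samples CD44, CEMIP2 and HYAL2 again had the highest means, and CD44 and CEMIP2 overlapped no other member. HAS2 moved up to a mean of 1.84 FPKM, with samples that spread across HYAL2, VCAN, HYAL1 and HAS3, and CEMIP moved down to 0.448 FPKM, where it overlapped HAS1. The plot of levels by sample shows these differences gene by gene.

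**Figure D1:**
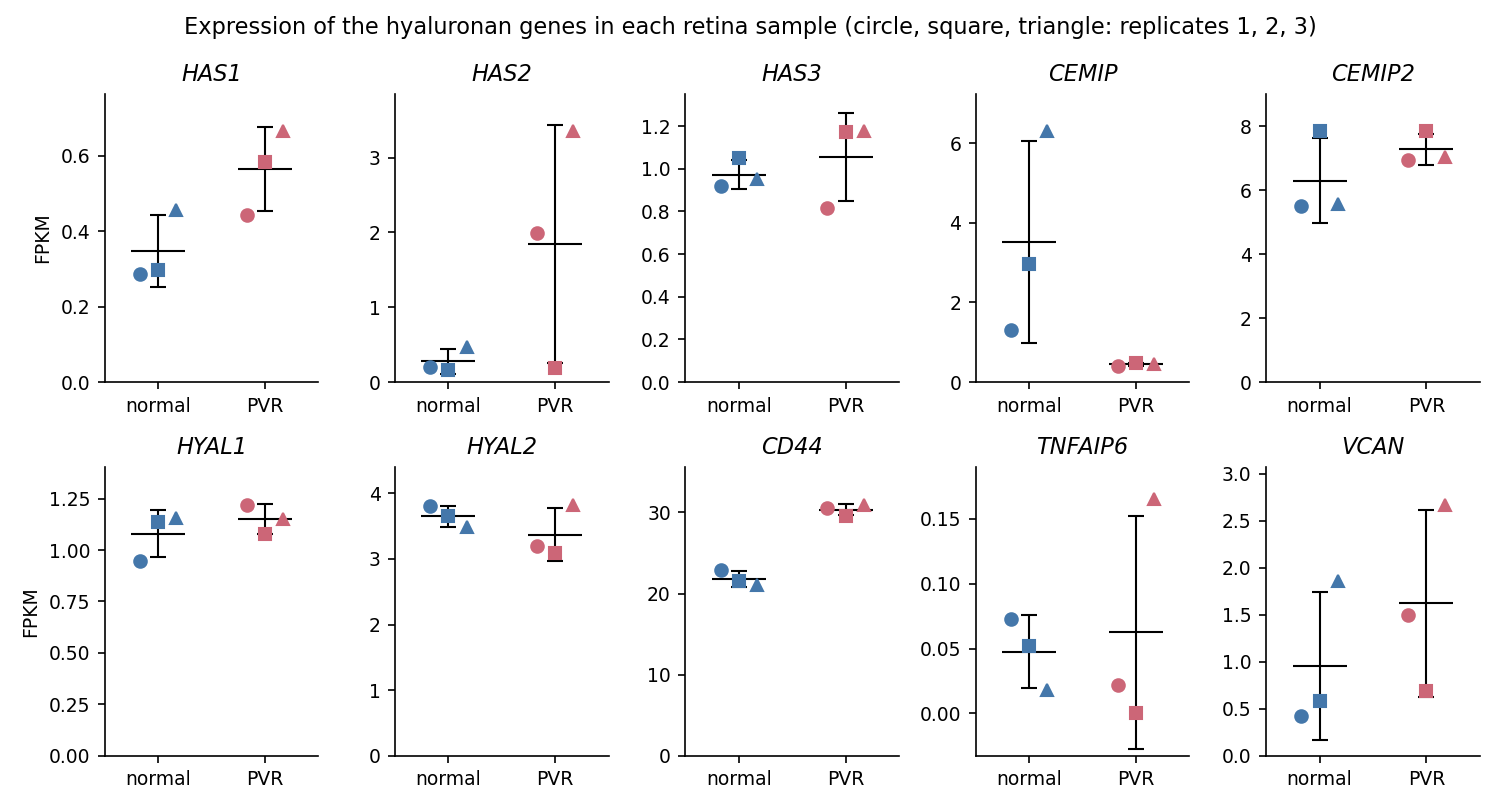
Expression of the 10 hyaluronan genes in FPKM (vertical axis, scaled for each gene) in the 3 normal and the 3 PVR retina samples; symbols mark replicates, the horizontal line is the mean and the bar its SD. CEMIP is below 0.5 FPKM in every PVR sample and spreads from 1.32 to 6.30 FPKM in the normal samples, CD44 is higher in all PVR samples, and HAS2 is high in PVR replicates 1 and 3 but not in PVR replicate 2.

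Among the synthases, HAS2, the enzyme that makes very long chains and is induced by growth factors in many tissues, differed most between PVR samples. HAS2 had 0.209, 0.165 and 0.473 FPKM in normal replicates 1, 2 and 3, and 1.99, 0.183 and 3.35 FPKM in the PVR replicates. PVR replicates 1 and 3 were thus above every normal sample, whereas PVR replicate 2 lay among the normal samples, and the groups overlapped. The counts behind these values were 40, 33 and 93 in normal and 311, 29 and 708 in PVR samples, so the gap within PVR is far from the limit of detection. HAS2 had a log2 fold change of 2.66 (95% interval 0.52 to 4.79), but its adjusted p was 0.166 in edgeR, and between 0.0541 and 0.409 in the other settings. The log2 fold change was 3.19 without PVR replicate 2 and 1.87 without PVR replicate 3.

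HAS1 and HAS3 did not pass the test. HAS1, usually the least active of the synthases, had 0.288, 0.297 and 0.457 FPKM in the normal samples and 0.445, 0.584 and 0.666 FPKM in the PVR samples. The groups overlapped in that the lowest PVR sample lay under the highest normal sample, and the log2 fold change of HAS1 was 0.64 (95% interval -0.14 to 1.41, edgeR adjusted p = 0.310). HAS3, which makes shorter chains, had 0.917, 1.05 and 0.951 FPKM in normal and 0.817, 1.17 and 1.18 FPKM in PVR samples. The PVR samples of HAS3 lay on both sides of the normal ones, with a log2 fold change of 0.05 (95% interval -0.48 to 0.57, edgeR adjusted p = 0.921).

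As a result, the leading synthase differed between samples. HAS3 held the largest part of the summed FPKM of the 3 synthases in all normal samples, with 64.9%, 69.5% and 50.6%, and also in PVR replicate 2, with 60.4%. In PVR replicates 1 and 3 HAS2 held 61.2% and 64.5%. The sum itself was between 1.41 and 1.88 FPKM in the normal samples, 1.94 FPKM in PVR replicate 2, and 3.25 and 5.19 FPKM in PVR replicates 1 and 3. These shares describe RNA per gene length and not enzyme activity.

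**Figure D2:**
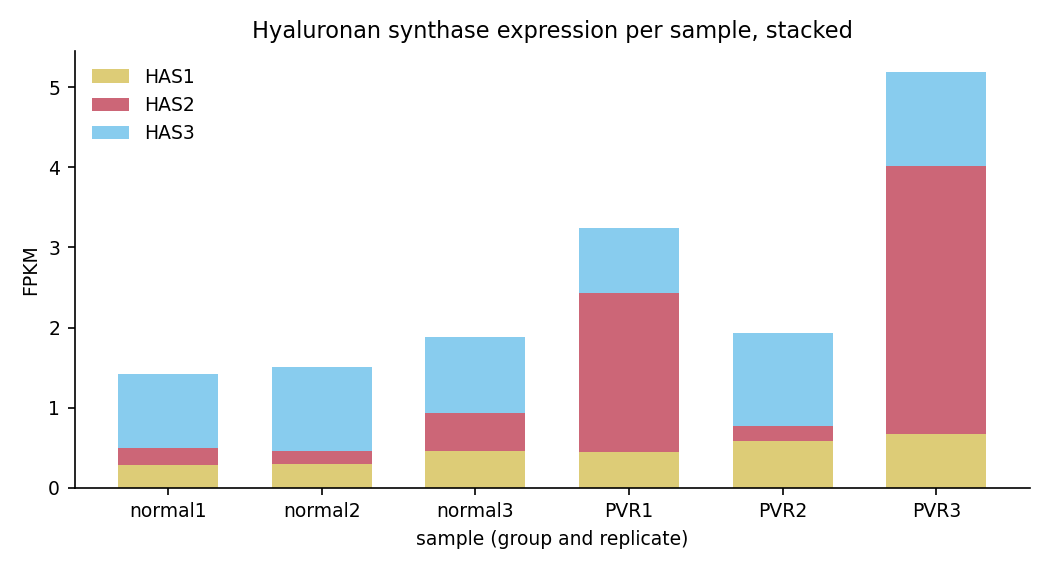
Stacked FPKM of HAS1, HAS2 and HAS3 (vertical axis) in each sample (horizontal axis). The 3 normal samples and PVR replicate 2 stand under 2 FPKM with HAS3 as the largest share, and PVR replicates 1 and 3 reach 3.25 and 5.19 FPKM with HAS2 as the largest.

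Of the depolymerizing genes, CEMIP, a secreted protein that binds hyaluronan and is needed for its breakdown in several cell types, was the member whose decrease led to this list. It had 1.32, 2.96 and 6.30 FPKM in normal replicates 1, 2 and 3, and 0.415, 0.481 and 0.449 FPKM in the PVR samples. The highest PVR sample lay below the lowest normal sample. The normal samples differed among themselves by a factor of 4.77 and the PVR samples by 1.16. In counts, the normal samples had 288, 675 and 1412 reads and the PVR samples 74, 87 and 108. The fitted log2 fold change of CEMIP was -3.04 (standard error 0.52), an 8.2-fold lower level in PVR. It was -2.34 without normal replicate 3, which holds the highest value, and between -2.98 and -3.42 with another sample left out.

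CEMIP2, a membrane protein related to CEMIP that cuts hyaluronan at the cell surface, had 5.50, 7.85 and 5.57 FPKM in the normal samples and 6.95, 7.84 and 7.04 FPKM in PVR. The PVR samples lay within the range of the normal ones, and the log2 fold change of CEMIP2 was 0.13 (95% interval -0.24 to 0.51, edgeR adjusted p = 0.663). Of the summed FPKM of CEMIP and CEMIP2, CEMIP held 19.4%, 27.4% and 53.1% in normal retina, but 5.63%, 5.78% and 5.99% in PVR. CEMIP2 thus made up nearly all of this sum in PVR, and the larger part of it in 2 of the 3 normal samples. As for the synthases, these shares describe RNA and not enzyme activity.

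HYAL1 and HYAL2 did not pass the test, and HYAL3, no member, is given with the other pathway genes. HYAL2, a membrane-anchored enzyme that cuts long chains into fragments, had 3.8, 3.66 and 3.49 FPKM in the normal samples and 3.19, 3.09 and 3.83 FPKM in the PVR samples. PVR replicate 3 was the highest of all samples and the other PVR samples were the lowest, and the log2 fold change of HYAL2 was -0.18 (95% interval -0.57 to 0.20, edgeR adjusted p = 0.543). HYAL1, the lysosomal enzyme that continues the digestion, had between 0.947 and 1.16 FPKM in normal and between 1.08 and 1.22 FPKM in PVR samples. Its log2 fold change was 0.02 (95% interval -0.52 to 0.56, edgeR adjusted p = 0.967).

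CD44, the main surface receptor of hyaluronan, carried in the retina chiefly by Mueller glia and immune cells, was higher in PVR by a small and even margin. It had 22.9, 21.5 and 21.0 FPKM in the normal samples and 30.5, 29.6 and 31.0 FPKM in the PVR samples. The groups did not overlap, and the spread within each group was small, with a mean of 21.8 ± 0.992 FPKM (SD, n = 3) in normal and 30.4 ± 0.688 FPKM (SD, n = 3) in PVR samples. The log2 fold change of CD44 was 0.41 (SE 0.07, 95% interval 0.23 to 0.58), a 1.33-fold higher level, with an adjusted p of 0.0478 from edgeR. This is under 0.05 but short of the log2 limit of 1 that the study's methods set. The call was lost whichever sample was left out, with an adjusted p of 0.104, 0.145 and 0.0606 without normal replicates 1, 2 and 3, and 0.257, 0.0897 and 0.0615 without PVR replicates 1, 2 and 3, while the log2 fold change stayed between 0.37 and 0.45. The adjusted p was 0.116 with the replicate number as a block, 0.0607 in limma-voom and 0.0539 without the filter on low counts, against 0.00151 in DESeq2.

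VCAN, the gene of versican, a large proteoglycan whose head domain binds hyaluronan, followed single samples more than groups. It had 0.424, 0.577 and 1.86 FPKM in normal replicates 1, 2 and 3, and 1.5, 0.687 and 2.67 FPKM in the PVR replicates. Normal replicate 3 was above PVR replicates 1 and 2, and the log2 fold change of VCAN was 0.72 (95% interval -0.78 to 2.22, edgeR adjusted p = 0.542). It was 1.62 without normal replicate 3 and 0.13 without PVR replicate 3. TNFAIP6, which transfers protein heavy chains onto hyaluronan during inflammation, was near the limit of detection, taken as 3 counts. The normal samples had 4, 3 and 1 counts of it and the PVR samples 1, 0 and 10, so it did not enter the test and no fold is given. A difference in TNFAIP6 was not detectable at this depth.

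Besides CEMIP, whose decrease the choice of the list used, 8 members were tested. Of these CD44 was higher in PVR with an adjusted p under 0.05 and the other 7 did not pass the test, against 1.09% of all genes tested higher, 0.615% lower and 1.7% in either direction. HAS2 had an unadjusted p of 0.0214 in edgeR, where 3963 of the 18697 genes tested had one under 0.05. The groups did not overlap for CD44 and CEMIP, which was so for 28% of all genes tested when compared by CPM, the counts scaled to normalized library size. Since the list was chosen with earlier results in view, nothing is read from these counts. The median log2 fold change was 0.13 over the 9 members and -0.01 over all genes tested. The plot of fold changes shows that HAS2 and VCAN had the widest intervals.

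**Figure D3:**
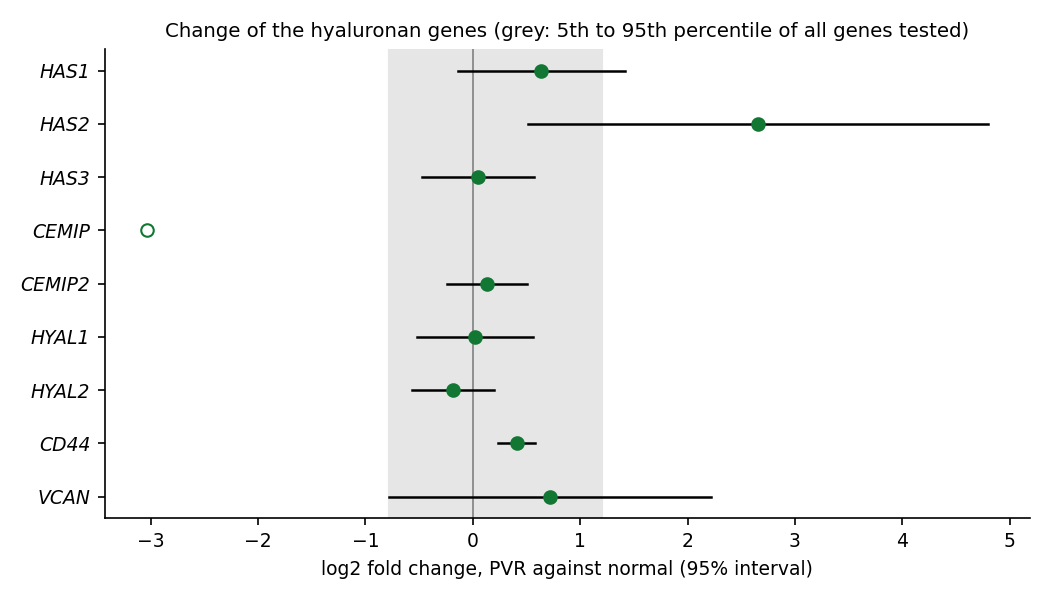
Log2 fold change of PVR against normal (horizontal axis) for the 9 hyaluronan genes tested, with 95% intervals from edgeR; CEMIP, whose change chose the list, is drawn open and without an interval. The grey band runs from the 5th to the 95th percentile of all genes tested, -0.78 to 1.21. CEMIP and HAS2 lie outside it, and all intervals drawn but those of CD44 and HAS2 cross 0.

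The other genes of the pathway were described by 9 lists with 54 symbols, of which 51 were matched and 45 tested. In PVR 4 of these 45 were higher (ITIH3, IQGAP1, ADAMTS1 and ADAMTS5) and 0 lower by an adjusted p under 0.05 from edgeR, against 1.09% higher and 0.615% lower of all genes tested. Not among the 45 was HAPLN2, removed by the filter on low counts and picked out after its values were seen. It had 9, 49 and 82 counts in normal and 1, 1 and 6 counts in PVR samples. In the 6 other settings that tested HAPLN2, its log2 fold change was from -5.15 to -3.69, with an adjusted p under 0.05 in 1 of them. An unadjusted p under 0.05 in edgeR was found for 19 of the 45, and for 3963 of the 18697 genes tested. DESeq2 called 12 pathway genes in both directions together and limma-voom 2, against 1755 and 215 among all genes. The median log2 fold change of the 45 was -0.03. By CPM the groups did not overlap for 21 of the 45, against 28% of all genes tested, although the FPKM of HEXA, HMMR and UAP1, counted among the 21, did overlap.

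The genes called were enzymes and partners of hyaluronan-binding proteins. ADAMTS1, a secreted protease that cuts versican and aggrecan, had 31.0, 31.7 and 54.2 FPKM in the normal samples and 102, 98.2 and 101 FPKM in the PVR samples. All PVR samples were well above the normal ones, with a log2 fold change of 1.30 (SE 0.20, edgeR adjusted p = 0.0342). The adjusted p of ADAMTS1 was 0.0954 and 0.104 without normal replicates 1 and 2, 0.189 and 0.0820 without PVR replicates 1 and 2, and 0.0525 with the replicate block. ADAMTS5, a protease with the same substrates, had 4.49, 3.66 and 5.58 FPKM in normal and 10.8, 8.23 and 13.9 FPKM in PVR samples. The groups of ADAMTS5 did not overlap either, with a log2 fold change of 1.2 (SE 0.22, edgeR adjusted p = 0.0466), and its adjusted p was 0.146 without normal replicate 1 or 2 and 0.226 without PVR replicate 1, and 0.0606 in limma-voom. The other 4 versicanases had log2 fold changes from -2.33 to -0.46 and did not pass the test.

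IQGAP1, a scaffold that links CD44 to the actin skeleton, rose from between 8.94 and 10.3 FPKM in the normal samples to between 15.7 and 17.6 FPKM in PVR. Its log2 fold change of 0.76 (SE 0.09, edgeR adjusted p = 0.0143) held in 15 of 16 other settings, and the exception was PVR replicate 1, without which the adjusted p was 0.118. RDX, an actin linker of CD44 and the most abundant gene of that list, had a log2 fold change of -0.20 with an adjusted p of 0.284 from edgeR. SPP1, which encodes the CD44 ligand osteopontin and was singled out after its values were seen, had 45.5, 49.0 and 39.1 FPKM in normal and 28.8, 20.6 and 33.1 FPKM in PVR samples. The PVR samples of SPP1 were all below the normal ones, but the adjusted p was 0.0892 in edgeR.

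ITIH3, a heavy chain that TNFAIP6 can place on hyaluronan, was counted 2, 2 and 4 times in normal retina and 34, 25 and 76 times in PVR retina. The levels were low, up to 0.584 FPKM, and the log2 fold change was 4.05 (SE 0.59, edgeR adjusted p = 0.0292). The normal counts lay near the 3 counts taken as the limit of detection, so the size of this fold is uncertain. The adjusted p of ITIH3 was 0.105 and 0.11 without normal replicates 1 and 2, 0.158 without PVR replicate 1 and 0.0617 with the replicate block. It was 0.0624 in limma-voom and 0.0797 in limma on log2(FPKM + 1), where the change was 0.44. ITIH5, the most abundant heavy chain, had a log2 fold change of -0.13 (edgeR adjusted p = 0.641). AMBP, whose product carries the heavy chains to TNFAIP6, had 1 count in all samples together.

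In the remaining lists no gene passed the test in edgeR. Of the 7 genes that supply the sugar precursors, UGP2 was the most abundant and had a log2 fold change of -0.07 (adjusted p = 0.798). HYAL3 had 1.77, 2.40 and 1.90 FPKM in normal retina against 0.870, 1.16 and 1.28 FPKM in PVR. Its groups did not overlap, and its log2 fold change was -0.95 (adjusted p = 0.125). SPAM1, the sperm hyaluronidase, had 0 counts in every sample. HEXA, a lysosomal enzyme that trims the fragments, had a log2 fold change of -0.40 (adjusted p = 0.159). For TLR2, a receptor that responds to fragments, it was -0.09 (adjusted p = 0.860), and for IMPG1, a hyaluronan-binding proteoglycan of the matrix around photoreceptors, 0.10 (adjusted p = 0.701). NCAN, the most abundant on its list of the lecticans, proteoglycans that bind hyaluronan as versican does, had a log2 fold change of -0.73 (adjusted p = 0.0773). ACAN, the gene of aggrecan, picked out after its values were seen, had 0.243, 0.378 and 0.0364 FPKM in normal and 0.917, 1.08 and 1.13 FPKM in PVR samples. All PVR samples of ACAN were above all normal ones, with a log2 fold change of 2.16 (95% interval 0.59 to 3.73, edgeR adjusted p = 0.136).

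**Figure D4:**
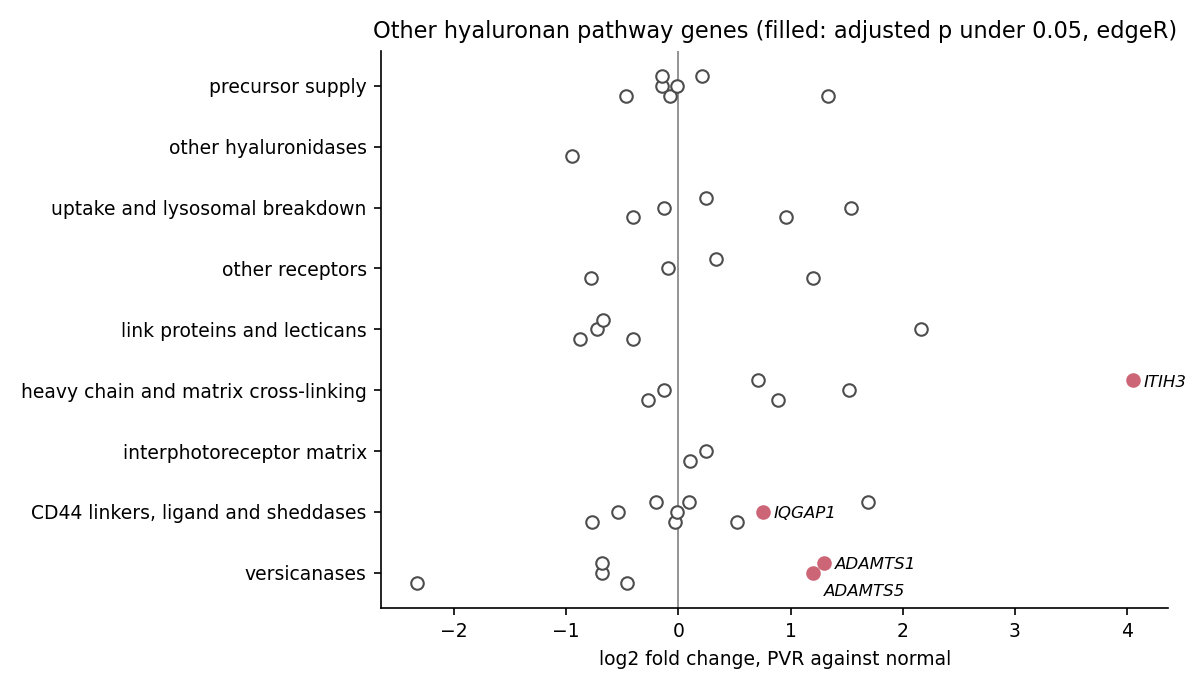
Log2 fold change of PVR against normal (horizontal axis) of the 45 other hyaluronan pathway genes tested, by list (vertical axis); filled points have an adjusted p under 0.05 in edgeR. The 4 filled genes, ITIH3, IQGAP1, ADAMTS1 and ADAMTS5, all lie to the right of 0.

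The order of the samples within a group was compared with that of marker genes of cells the retina could hold. In the normal samples CEMIP was lowest in replicate 1 and highest in replicate 3. The same order was found for 8 of 8 oligodendrocyte markers, 5 of 8 Mueller glia markers, 5 of 10 endothelial markers and 4 of 7 pericyte and smooth muscle markers, against 19% of all genes tested, and for 1 of 10 retinal pigment epithelium markers, 0 of 8 photoreceptor, 0 of 11 microglia and macrophage and 0 of 7 fibroblast markers. The summed FPKM of the oligodendrocyte list was between 33.1 and 177 in normal and between 20.4 and 23.5 in PVR samples, and 3 of its 7 tested genes (MAG, MOBP and SOX10) were lower in PVR with an adjusted p under 0.05, against 0.615% of all genes tested. Of that list OLIG2 was at 0 counts in PVR replicates 1 and 2 and in normal replicate 1. The endothelial list summed to between 95.6 and 99.9 FPKM in normal and between 109 and 113 FPKM in PVR samples, carried by KDR. CDH5, at 0 counts in PVR replicates 1 and 2, and VWF, named after its values were seen, were lower by an edgeR adjusted p under 0.05. These were 2 of the 10 genes of that list, against 0.615% of all genes tested. The others did not pass the test, with log2 fold changes from -3.59 for CLDN5 to 0.27 for FLT1. The pericyte list summed to between 5.17 and 12.3 FPKM in normal and between 5.14 and 13.5 FPKM in PVR samples, but its genes differed. RGS5, singled out after its values were seen, had 0.600, 2.09 and 4.18 FPKM in normal retina and 0.0165, 0.0544 and 0.0409 FPKM in PVR. Its log2 fold change was -5.97 (edgeR adjusted p = 0.0238). RGS5 was the only 1 of the 7 genes of that list to pass the test, against 0.615% of all genes tested lower. The groups of the others overlapped, with log2 fold changes from -0.52 for ABCC9 to 1.65 for ACTA2. ACTA2 was higher in PVR replicates 1 and 3 than in any normal sample. The retinal pigment epithelium list, which summed to between 108 and 230 FPKM in normal and between 56.8 and 75.3 FPKM in PVR samples, was highest in normal replicate 2 and lowest in normal replicate 3, unlike CEMIP. Of its 9 tested genes 2 were lower by an edgeR adjusted p under 0.05, against 0.615% of all genes tested. These were LRAT, named after its values were seen, and TTR, with log2 fold changes of -2.82 and -1.56. The others did not pass the test, with log2 fold changes from -1.40 for RPE65 to 0.53 for BEST1. The part of these cells in the decrease of CEMIP was not tested. By the root mean square difference of centred log2 CPM over the 6 samples, the genes most like CEMIP were TMEM88B, PLLP and ERG, with differences of 0.337, 0.356 and 0.363 against a median of 1.51 over all genes with a symbol. Their log2 fold changes were -3.50, -2.67 and -5.12. The likeness took in the difference between the groups, so large decreases followed from the choice of these genes. In PVR replicates 1, 2 and 3 TMEM88B had 5, 9 and 4 counts and PLLP 14, 10 and 23. ERG had 0, 1 and 0 there, under the 3 counts taken as the limit of detection. The genes most like CD44 were PLCE1, CACNA1C and GPRASP3, with 0.0378, 0.0469 and 0.0487 against a median of 0.309.

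In the PVR samples HAS2 was lowest in replicate 2 and highest in replicate 3. Of the 9 other members VCAN, HYAL2, CD44 and TNFAIP6 had the same order, the last from 1, 0 and 10 counts. So did 7 of 8 photoreceptor, 5 of 7 pericyte and smooth muscle, 5 of 8 Mueller glia, 6 of 10 retinal pigment epithelium and 4 of 7 fibroblast markers, against 27.1% of all genes tested. The order was also that of 5 of 11 lens, 2 of 9 endothelial, 1 of 11 microglia and macrophage, 0 of 7 oligodendrocyte and 0 of 4 platelet markers. COL1A1, the fibrillar collagen gene, had 2.49, 1.13 and 2.75 FPKM in the normal samples and 11.8, 1.21 and 21.6 FPKM in the PVR samples. COL3A1 had 1.55, 0.679 and 2.11 FPKM in normal and 6.55, 0.232 and 13.7 FPKM in PVR samples. ACTA2, the smooth muscle actin gene that marks myofibroblasts, had 5.85, 1.53 and 8.02 FPKM in PVR and between 1.16 and 2.14 FPKM in normal samples. As with HAS2, PVR replicates 1 and 3 were high and PVR replicate 2 was within the normal range for COL1A1 and ACTA2 and below it for COL3A1. The 3 genes did not pass the test (adjusted p from 0.166 to 0.291 in edgeR). COL1A1 and COL3A1 were named after their values were seen, and other genes of the fibroblast list differed from them. LUM, the most abundant, had 28.5, 22.8 and 21.8 FPKM in normal and 35.2, 43.5 and 30.9 FPKM in PVR samples, PDGFRA was also highest among PVR samples in replicate 2, and DCN had a log2 fold change of -0.29 (edgeR adjusted p = 0.764). The summed FPKM of the fibroblast list was between 30.7 and 43.2 in normal and between 50.2 and 86.7 in PVR samples, and the part of these cells in the level of HAS2 was not tested.

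In normal retina CD44 had the reverse of the CEMIP order, and in PVR it had the HAS2 order within a narrow range. The Mueller glia list summed to between 1008 and 1323 FPKM in normal and between 1019 and 1072 FPKM in PVR samples. Its genes GLUL and RLBP1 were lower by an adjusted p under 0.05, against 0.615% of all genes tested, and the other 6 did not pass the test. GFAP, the filament of reactive glia, which the naming rule did not select, had 20.0, 60.5 and 86.1 FPKM in the normal samples and 157, 164 and 138 FPKM in PVR. The log2 fold change of GFAP was 1.39 (edgeR adjusted p = 0.143). The microglia and macrophage list summed to between 14.9 and 36.1 FPKM in normal and between 42.1 and 60.2 FPKM in PVR samples, with groups that did not overlap for 9 of 11 genes, against 28% of all genes tested, and with adjusted p-values from 0.0735 to 0.582 in edgeR. The part of glia or immune cells in the level of CD44 was not tested. Of the platelet list TREML1 was at 0 counts in all samples, and the list summed to between 2.88 and 6.30 FPKM in normal and between 4.74 and 6.44 FPKM in PVR samples.

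**Figure D5:**
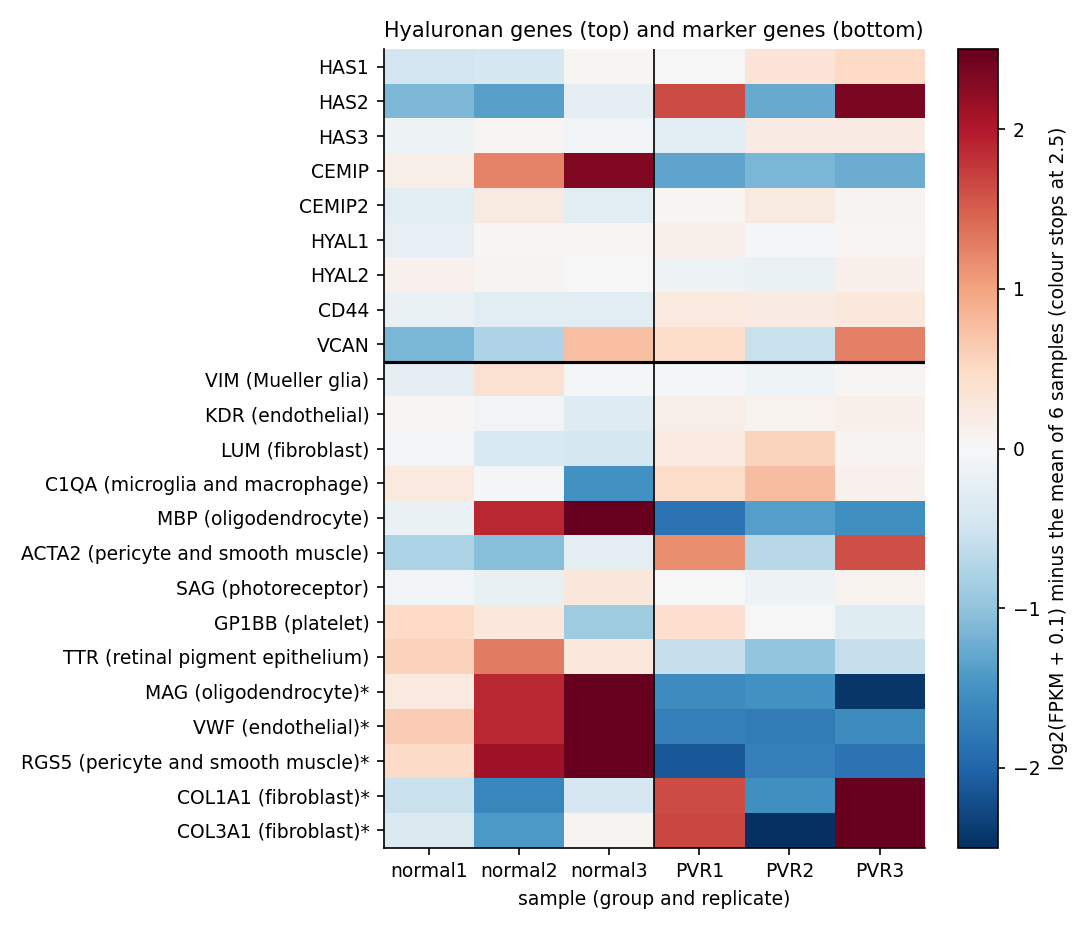
Level of 9 hyaluronan genes (above the line) and marker genes (below it) in each sample, as log2(FPKM + 0.1) minus the mean of the 6 samples; red is higher and blue lower, and the colour stops at 2.5. The first 9 marker genes are the most abundant reported here of each list, lens apart, and those with an asterisk were added after their values were seen. CEMIP is darkest red in normal replicate 3, as are MBP, MAG, VWF and RGS5, and HAS2 is red in PVR replicates 1 and 3, as are ACTA2, COL1A1 and COL3A1.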

How the data were processed

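Retinal polyadenylated RNA from 3 normal and 3 PVR samples was sequenced. According to the paper's methods and the submitters' processing notes, reads were handled with fastp, aligned to OryCun2.0 with HISAT2 and counted with htseq-count. The authors deposited the raw count of each gene and an FPKM value for each gene. The strand setting and the annotation release are not given in the sources used here. Every column was matched to a sample by its title.

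Counts were analysed with edgeR 4.0.16 in R 4.3.3 (default filter on low counts, TMM factors, quasi-likelihood test, condition as the only term, Benjamini-Hochberg adjustment over all genes tested). The 95% intervals use the test's degrees of freedom. The study's methods use DESeq2, which was run here as an alternative (version 1.42.0), with limma 3.58.1 and the settings listed at the end. The tests were also tested on simulated counts. The sources used here do not say whether the replicate numbers pair the samples.

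The members, lists and naming rule were chosen with earlier results of these data known. The rule named all members, in each pathway list the genes with an adjusted p under 0.05 and the most abundant gene, the most abundant marker of each list, markers at 0, and the 3 genes most like a called member. Of 144 list symbols, 133 were matched by name, 4 by the gene number in RefSeq's mOryCun1.1 table, used for names only, and 7 were not matched. Some marker genes are not reported here and stay out of the lists' sums and counts. Samples of 1 group differed by 19.6 to 185 in chi-square per degree of freedom, beyond counting noise. Limits of detection cover counting error only, since reads are not independent molecules. Tables and figures were made with Python 3.11.15, pandas 2.3.3 and matplotlib 3.10.9.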

Additional observations from a re-analysis of the deposited data

How the results depend on the processing

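The settings tried were DESeq2, limma-voom, limma on FPKM with a pseudocount of 1 or 0.1, RLE and upper-quartile factors, a minimum of 10 counts per sample or no filter, a replicate block, removal of lens genes, and leaving out each sample in turn. Genes with an adjusted p under 0.05 numbered 318 in edgeR, 1755 with DESeq2, 92 with the replicate block and 98, 76 and 557 without normal replicates 1, 2 and 3, and 22, 113 and 650 without PVR replicates 1, 2 and 3. CEMIP, used by the choice of the list, is left out of the count of hyaluronan members. Of the other members only CD44 passed in edgeR, and it passed in 7 of 16 other settings. The call of CD44 was lost with no filter, limma-voom, the replicate block and any sample left out. The remaining members passed in none of the settings. Among all genes, 2424 to 4675 had an unadjusted p under 0.05 with a sample left out. For the other pathway genes the count of 4 became 12 with DESeq2, 2 with limma-voom and the block, and 0 to 6 with a sample left out. The log2 fold change of CEMIP was -1.49 on the log2(FPKM + 1) scale, which understates the change of low genes, and -2.34 to -3.42 with a sample left out. Among 20 other named genes, signs changed only where values were near 0: with a sample left out HAS3 ranged from -0.056 to 0.199, HYAL1 from -0.061 to 0.083, UGP2 from -0.234 to 0.071, TLR2 from -0.324 to 0.048 and IMPG1 from -0.027 to 0.214, and TLR2 was 0.0014 and 0.017 on the FPKM scales. The block lost the calls of CD44, ITIH3 and ADAMTS1. Same-numbered samples correlated by -0.01, 0.07 and 0.04 in their deviations from the group means, and differently numbered ones by -0.08 to 0.04. With 3 samples a group, such correlations cannot decide whether the numbers pair the samples. The cause of these shifts was not tested. At 0 to 10 counts a sample, no difference was detectable in TNFAIP6, AMBP and SPAM1.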
